A study of Mus musculus with 70 samples.

Results

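The ventromedial hypothalamic nucleus (VMH) was represented by 2 of the 70 libraries of the series, and it was compared with the 12 libraries of 4 other hypothalamic nuclei. These were the arcuate nucleus (ARH, 3 libraries), the dorsomedial nucleus (DMH, 4 libraries), the paraventricular nucleus (PVH, 2 libraries) and the lateral hypothalamic area (LHA, 3 libraries). Libraries were assigned by the region abbreviation in their sample descriptions, with no use of any measured value, and each of the 4 regions had the same weight. All 14 libraries came from male C57BL/6NTac mice (C57BL/6 in the labels) at postnatal day 56 that carried no transgene and received no treatment. RNA was extracted from punch biopsies of frozen coronal sections and sequenced as mRNA. Tissue of several mice was pooled for each library, so the spread given here is between pools and not between mice, and the same mice could supply several regions.

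The VMH lies beside the third ventricle above the ARH, and it borders the DMH and the LHA. Most of its projection neurons use glutamate, and they are known for roles in energy balance, the response to low blood glucose, and social and defensive behavior. The nuclear receptor steroidogenic factor 1, encoded by Nr5a1, is required for the nucleus to form and marks its neurons in the brain. The zinc finger factor encoded by Fezf1 acts in the same lineage.

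The 14 libraries held 14201960 to 19689276 estimated counts each. The share of TPM (a level scaled to the library and corrected for transcript length) on mitochondrially encoded genes was 7.53% and 6.16% in the VMH libraries and 5.55% to 10.3% in the other 12 (two-sided exact permutation test over 91 groupings, p = 0.33, where the smallest possible p is 0.011). No library was a copy of another: over the 14 pairs of replicates, the chi-square divided by the number of genes was 5.73 to 19.5, above the value near 1 that sampling noise gives.

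Nr5a1 separated the VMH from the DMH, PVH and LHA but less clearly from the ARH. Its level was 45.8 TPM in VMH replicate 1 and 21.4 TPM in VMH replicate 2. The 3 ARH libraries held 19.7, 18.3 and 16.8 TPM. In the other 9 libraries Nr5a1 stayed at or below 0.346 TPM. Both VMH libraries were thus above all 12 others, but VMH replicate 2 lay close to the ARH range. Fezf1 was at 62.0 and 28.6 TPM in the VMH, at 33.0, 39.4 and 34.1 TPM in the ARH, at 6.20 and 7.95 TPM in the PVH, and at or below 1.55 TPM in the DMH and LHA. VMH and ARH overlapped for this gene. Both label markers were therefore higher in the VMH than in the DMH, PVH and LHA, whereas neither resolved VMH from ARH tissue. VMH and ARH are adjacent in the sections, and how much of either signal came from tissue shared between the punches was not tested.

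The 2 VMH libraries also differed from each other. VMH replicate 1 was higher in Nr5a1 and Fezf1 and in the neurohypophysial hormone genes Avp and Oxt. Avp, the vasopressin gene, was at 409 and 7.61 TPM in VMH replicates 1 and 2, and Oxt, the oxytocin gene, was at 599 and 52.5 TPM. VMH replicate 2 was higher in Gal, the gene of the peptide galanin, with 113 and 446 TPM in replicates 1 and 2, and in genes of ependymal cells given below. The marker list for the PVH (6 genes, among them Oxt and Avp) summed to 1063 and 91.8 TPM in VMH replicates 1 and 2, with 712 and 3234 TPM in the 2 PVH libraries and 394.5 to 2614 TPM in the ARH. With 2 libraries, results were computed with and without each of them. In bulk tissue, fewer cells of a type and less RNA per cell cannot be told apart.

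**Figure D1:**
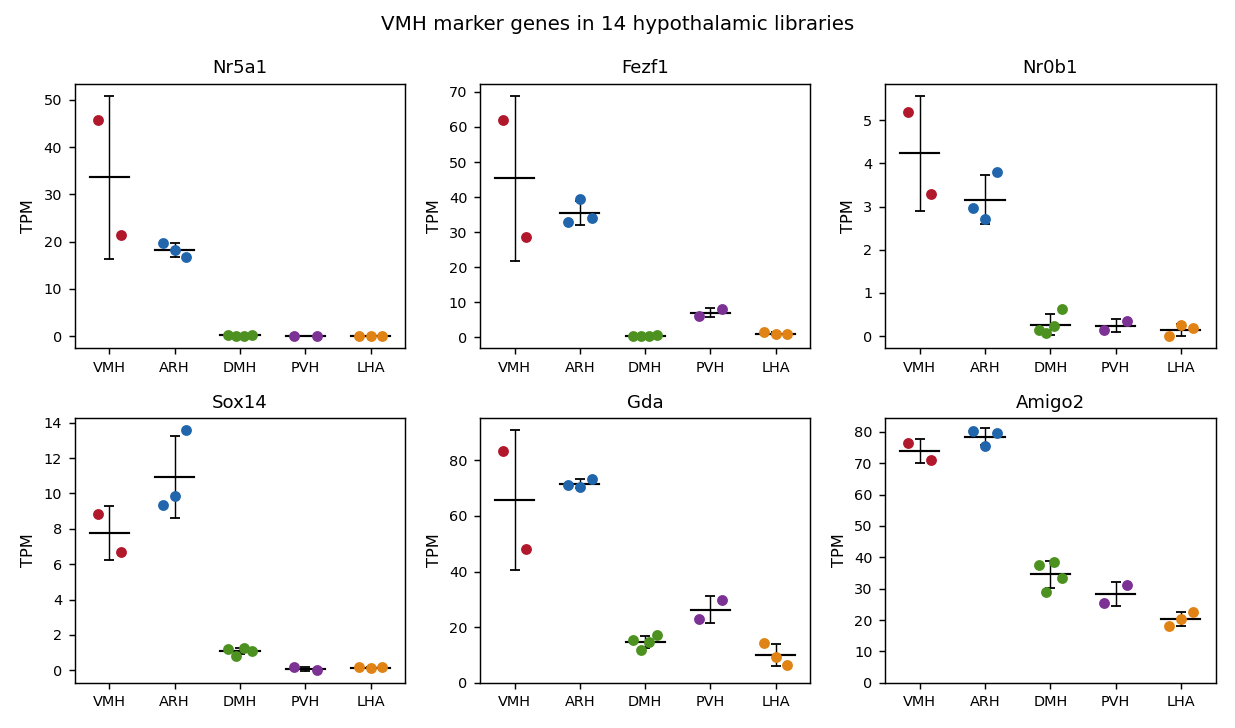
TPM of 6 VMH marker genes (vertical axes, linear) in the 14 hypothalamic libraries, grouped by region. Each point is a library, the horizontal bar is the mean and the error bar the SD. Nr5a1 in VMH stood at 45.8 and 21.4 TPM and in ARH at 16.8 to 19.7 TPM. The VMH and ARH points overlapped for Fezf1, Nr0b1, Gda and Amigo2, and the VMH points of Sox14 lay below those of ARH.

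Over all genes, the VMH was compared with the mean of the 4 other regions on the scale of log2(TPM + 0.5) with limma, and a gene was called at a Benjamini-Hochberg adjusted p under 0.05 and an absolute log2 difference above 1. Of 17034 genes tested, 134 were higher in the VMH (0.787%) and 149 were lower (0.875%). In 41 of those higher (0.241% of genes tested) both VMH libraries lay above all 12 others, and in 41 of those lower (0.241%) both lay below all 12. The counts depended on the VMH library used. Without VMH replicate 1 they were 97 and 151, of which 62 and 74 were among the genes called with both libraries. Without VMH replicate 2 they were 66 and 53, of which 37 and 41 were shared.

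VMH neurons are marked by transcription factors, secreted peptides, adhesion molecules and receptors, and 26 such genes were examined. Of these 26 VMH markers, 9 were higher in the VMH than in the mean of the 4 regions (0.787% of all genes tested) and 17 were not called. Their median log2 difference was 0.73, against 0.06 over all genes tested. This list holds the label markers Nr5a1 and Fezf1. Like the other lists below, it was chosen with earlier results of these data known, so its counts and median describe it and are not independent support. Nr5a1 (chr2:38692656-38714542, GRCm38, minus strand) was higher by 4.51 ± 0.24 (log2 difference ± SE, adjusted p = 4.38e-06), and the value was 3.97 without VMH replicate 1 and 5.05 without VMH replicate 2. Fezf1 (chr6:23245044-23248362, minus strand) was higher by 3.24 ± 0.24 (adjusted p = 8.53e-05). The call for both genes held with either VMH library left out.

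Among the other transcription regulators, Sox14, a factor of the Sox family, was at 8.83 and 6.68 TPM in the VMH. It reached 9.33, 9.87 and 13.6 TPM in the ARH and at most 1.23 TPM in the other regions. Its log2 difference was 2.34 ± 0.20 (adjusted p = 0.000131). Nr0b1 encodes DAX1, a nuclear receptor without a DNA-binding domain of the usual type that represses steroidogenic factor 1 activity. It was at 5.18 and 3.30 TPM in the VMH, at 2.98, 2.72 and 3.79 TPM in the ARH and at or below 0.621 TPM elsewhere, with a log2 difference of 2.13 ± 0.29 (adjusted p = 0.00235). Vgll2, which encodes a cofactor of TEAD transcription factors, was at 3.04 and 4.20 TPM in the VMH and at 0.164 to 1.99 TPM in the 12 others, so its groups did not overlap. Its call (1.69 ± 0.40, adjusted p = 0.0268) was lost when either VMH library was left out, with adjusted p of 0.0931 without replicate 1 and 0.263 without replicate 2.

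The remaining called markers encode enzymes, secreted proteins and surface proteins. Gda, the guanine deaminase gene, was at 83.5 and 48.0 TPM in the VMH, at 70.4 to 73.3 TPM in the ARH, and at 6.45 to 29.7 TPM in the 9 other libraries. C1ql2, which encodes a secreted synaptic protein of the C1q family, was at 35.4 and 16.3 TPM in the VMH and at 6.05 to 27.5 TPM elsewhere. Both genes, together with the orphan receptor gene Gpr149, lost their call without VMH replicate 1, with adjusted p of 0.0721 for Gda, 0.324 for C1ql2 and 0.0662 for Gpr149. The C1ql2 call was also lost without ARH replicate 1 or PVH replicate 1. Amigo2, a gene for a neuronal adhesion protein, was even between the VMH libraries, with 76.5 and 71.1 TPM against 75.3 to 80.3 TPM in the ARH and 18.1 to 38.4 TPM in the other 3 regions. Its log2 difference of 1.05 ± 0.11 (adjusted p = 0.000887) was called with either VMH library left out. The Amigo2 call was lost without the LHA or without the PVH among the other regions.

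Several widely used VMH genes were not called against the mean of the 4 regions. Adcyap1, the gene of the peptide PACAP, was at 78.8 and 40.7 TPM in the VMH, at 60.4 to 78.9 TPM in the ARH and at 42.0 to 56.2 TPM in the DMH (0.74 ± 0.24, adjusted p = 0.0879). Esr1, the estrogen receptor alpha gene, was at 3.98 and 4.32 TPM in the VMH and at 10.8 to 13.6 TPM in the ARH. Against the ARH alone, Esr1 was lower in the VMH by 1.46 on the log2 scale (adjusted p = 0.000665). The values for Bdnf, a neurotrophin gene, were 8.78 and 5.68 TPM in the VMH within a range of 3.79 to 10.2 TPM in the 12 others. Slc17a6, the vesicular glutamate transporter gene of most hypothalamic glutamate neurons, was at 145 and 104 TPM in the VMH within a range of 82.1 to 219.6 TPM. Lepr, the leptin receptor gene, was at 2.05 and 3.84 TPM within a range of 1.38 to 10.5 TPM.

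The 26 markers differed by the region that the VMH was set against. The 4 comparisons share the same VMH libraries. Against the ARH, 0 markers were higher by limma, 0 by edgeR on counts and 3 by an unadjusted limma p under 0.05. Lower were 2 by limma, Esr1 and the tachykinin gene Tac1, 3 by edgeR and 5 by an unadjusted limma p under 0.05. Of all genes tested, limma called 0.299% higher and 1.67% lower against the ARH. Of the 26, 11 were higher than in the DMH (0.552% of all genes tested, with 0.863% lower), 11 were higher than in the PVH (1.91% in each direction) and 13 were higher than in the LHA (4.47%, with 2.46% lower), by limma. edgeR called 12, 11 and 13 higher in these 3 comparisons and 1 lower in each. Nr5a1 differed from the ARH by 0.77 ± 0.29 (adjusted p = 0.174) and Fezf1 by 0.25 ± 0.29 (adjusted p = 0.711). Against the other regions the log2 differences were 5.55 to 5.88 for Nr5a1 and 2.50 to 5.44 for Fezf1, all of them called.

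Steroidogenic factor 1 binds DNA as a monomer at an extended nuclear receptor site that holds the hexamer AGGTCA. Promoters from RefSeq (GRCm38.p6; 250 bases before to 50 after a gene start) were available for 17 of the 23 genes that were either called VMH markers or the 15 leading higher genes below. The hexamer was found on either strand in 4 of these 17, C3, Krt18, Nr0b1 and Trh, and in 16.3% of all 32851 promoters. The longer form CAAGGTCA was in 0 of the 17 and in 1.56% of all promoters. The promoter windows of Nr0b1 (chrX:86191525-86191824, plus strand) and Trh (chr6:92244601-92244900, minus strand) are shown because Nr0b1 was the gene with the pattern most like that of Nr5a1 and Trh was among the most abundant genes called higher. Capitals mark the hexamer in Nr0b1 and its reverse complement TGACCT in Trh, and a match is a description of letters, not evidence of binding.
Nr0b1: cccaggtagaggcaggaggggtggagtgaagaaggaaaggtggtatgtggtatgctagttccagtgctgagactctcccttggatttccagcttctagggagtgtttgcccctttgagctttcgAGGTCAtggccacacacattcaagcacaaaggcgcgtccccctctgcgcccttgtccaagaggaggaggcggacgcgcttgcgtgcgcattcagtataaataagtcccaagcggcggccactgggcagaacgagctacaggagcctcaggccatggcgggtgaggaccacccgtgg
Trh: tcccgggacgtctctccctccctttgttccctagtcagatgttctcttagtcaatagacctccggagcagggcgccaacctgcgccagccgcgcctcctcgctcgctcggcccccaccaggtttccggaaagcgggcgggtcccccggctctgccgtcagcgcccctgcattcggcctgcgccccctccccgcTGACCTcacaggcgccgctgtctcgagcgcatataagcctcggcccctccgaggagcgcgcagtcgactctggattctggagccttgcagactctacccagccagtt

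Of the 15 genes with the largest positive difference, among called genes with both VMH libraries above all 12 others and a VMH mean of at least 5 TPM, 14 are named here: Nr5a1, Npvf, Trh, Prss30, Krt18, Stoml3, Vax1, Tnfrsf8, C3, Nptx1, Efcab6, Tekt2, Barx2 and Itih3. They include 2 peptide genes. Npvf (chr6:50650672-50654439) encodes the RFamide-related peptides, which act on the reproductive axis. It was at 59.6 and 122.6 TPM in the VMH, at 17.3 to 50.8 TPM in the DMH, at 11.3 to 19.5 TPM in the ARH and at or below 1.97 TPM in the PVH and LHA. The log2 difference was 4.18 ± 0.40 (adjusted p = 0.000408) from the mean of 4, and 1.25 (adjusted p = 0.158) from the DMH alone. Npvf is a known DMH peptide, and its difference from the DMH was not called.

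Trh (chr6:92242061-92244650) encodes thyrotropin-releasing hormone, for which PVH neurons are the best known source in control of the thyroid axis. It was at 280.9 and 229.2 TPM in the VMH, at 87.0 and 168.8 TPM in the PVH, at 18.3 to 62.8 TPM in the DMH, at 32.1 to 52.2 TPM in the ARH and at 24.9 to 40.6 TPM in the LHA. Both VMH libraries lay above both PVH libraries. The log2 difference was 2.31 ± 0.39 from the mean of 4 (adjusted p = 0.00619), 2.58 from the ARH (adjusted p = 0.00787), 2.51 from the DMH (adjusted p = 0.00709), 3.07 from the LHA (adjusted p = 0.000615) and 1.06 from the PVH (adjusted p = 0.206). With either VMH library left out, the adjusted p against the mean of 4 was 0.0602.

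Apart from Npvf and Trh, no leading gene named here was called against the ARH alone, and these include Nptx1 and the homeobox genes Vax1 and Barx2. Nptx1, which encodes a neuronal pentraxin that clusters AMPA receptors at synapses, was at 127.5 and 87.9 TPM in the VMH, at 57 to 66.0 TPM in the ARH and at 22.7 to 54.6 TPM in the other 9 libraries. Its log2 difference from the ARH was 0.78 (adjusted p = 0.024), under the size needed for a call. Its log2 difference from the mean of 4 of 1.32 ± 0.15 (adjusted p = 0.000887) was called with either VMH library left out. Vax1 was at 10.01 and 6.21 TPM and Barx2 at 7.35 and 6.45 TPM in the VMH, and their highest values elsewhere were 5.62 and 5.12 TPM, both in the ARH. The Vax1 call was lost with either VMH library left out, with adjusted p of 0.217 and 0.152, and without DMH replicate 4, LHA replicate 1 or PVH replicate 1.

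Krt18, a keratin gene, was at 11.2 and 9.92 TPM in the VMH, 6.75 to 7.77 TPM in the ARH and at most 2.32 TPM elsewhere (2.07 ± 0.23, adjusted p = 0.000887). Tnfrsf8, the gene of the receptor CD30, was at 16.9 and 11.8 TPM in the VMH, 8.21 to 11.4 TPM in the ARH and 1.57 to 4.21 TPM elsewhere (1.77 ± 0.21, adjusted p = 0.00132). The most abundant of the 15 was Itih3, whose product binds hyaluronan in the extracellular matrix, with 372 and 392 TPM in the VMH and 96.0 to 292 TPM in the 12 others. C3, the central complement component, differed more between the VMH libraries, at 10.2 and 4.43 TPM, with 0.688 to 3.33 TPM in the 12 others, and its call was lost without VMH replicate 1 (adjusted p = 0.178). Tekt2, a tektin of ciliary microtubules, and Stoml3, a stomatin-like membrane protein, both lost the call without VMH replicate 2, with adjusted p of 0.126 and 0.146. For Efcab6, which encodes an EF-hand protein, leaving out any of 11 of the 14 libraries ended the call. Prss30, a serine protease gene at 7.68 and 4.00 TPM in the VMH and at most 3.93 TPM elsewhere, lost its call with either VMH library left out. The calls of Itih3, Barx2, Stoml3, Tekt2, Prss30, Vax1 and Efcab6 against the mean of 4 were lost without the LHA among the other regions.

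**Figure D2:**
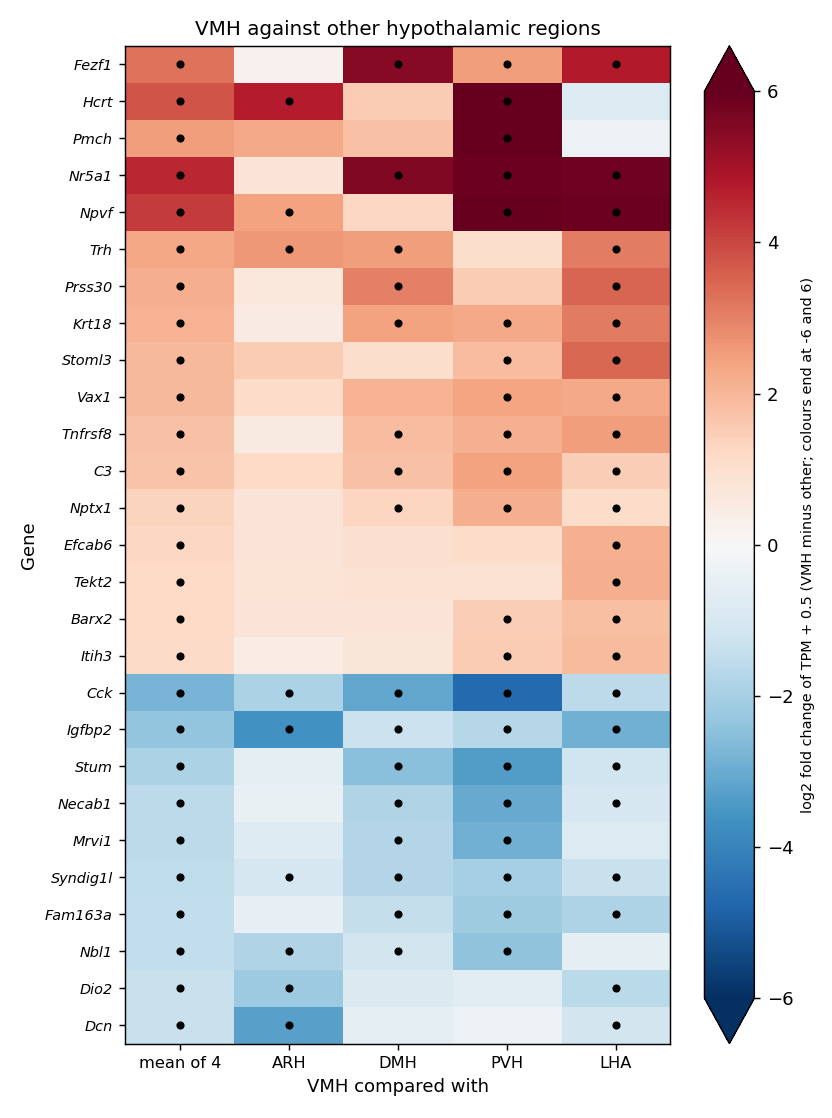
Log2 difference of TPM + 0.5 between VMH and the mean of the 4 other regions or each region alone (columns) for Fezf1, Hcrt, Pmch, 14 leading higher genes and the 10 leading lower genes (rows). Red is higher and blue lower in the VMH, and a black dot marks a call; most of the leading higher genes have no dot in the ARH column, where only Hcrt, Npvf and Trh were called higher.

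The VMH libraries held high levels of peptide genes whose neurons lie in the LHA. Hcrt (chr11:100761069-100762931), the hypocretin (orexin) gene, was at 659 and 939 TPM in the VMH, at 915, 1534 and 1890 TPM in the LHA, at 120 to 451 TPM in the DMH, at 13.2 to 47.7 TPM in the ARH and at or below 0.784 TPM in the PVH. The VMH thus stood above the DMH, ARH and PVH, and VMH replicate 2 lay within the LHA range. Pmch (chr10:88091072-88092375), the gene of melanin-concentrating hormone, was at 3454 and 3595 TPM in the VMH and at 3871, 4565 and 5180 TPM in the LHA. It was at 358 to 1880 TPM in the DMH, 660 to 830 TPM in the ARH and 16.3 to 95.8 TPM in the PVH.

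Both genes were called higher in the VMH than in the mean of 4, Hcrt by 3.76 ± 0.50 (adjusted p = 0.00223) and Pmch by 2.53 ± 0.57 (adjusted p = 0.0223). The Pmch call was lost without VMH replicate 1 (adjusted p = 0.112) and without VMH replicate 2 (adjusted p = 0.181). From the LHA alone the differences were -0.81 ± 0.59 for Hcrt (adjusted p = 0.340) and -0.35 ± 0.68 for Pmch (adjusted p = 0.738). From the DMH, the other neighbor, they were 1.5 ± 0.56 (adjusted p = 0.175) and 1.76 ± 0.64 (adjusted p = 0.161). The large difference from the mean of 4 rested on the PVH, where both were low, since without the PVH among the 4 regions the differences were 1.8 for Hcrt and 1.22 for Pmch and neither was called. Of the 6 LHA markers, limma called 3 higher against the mean of 4 (0.787% of all genes tested), the third being Cartpt, and edgeR also 3. The part of neighboring LHA tissue in the VMH profile was not tested.

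**Figure D3:**
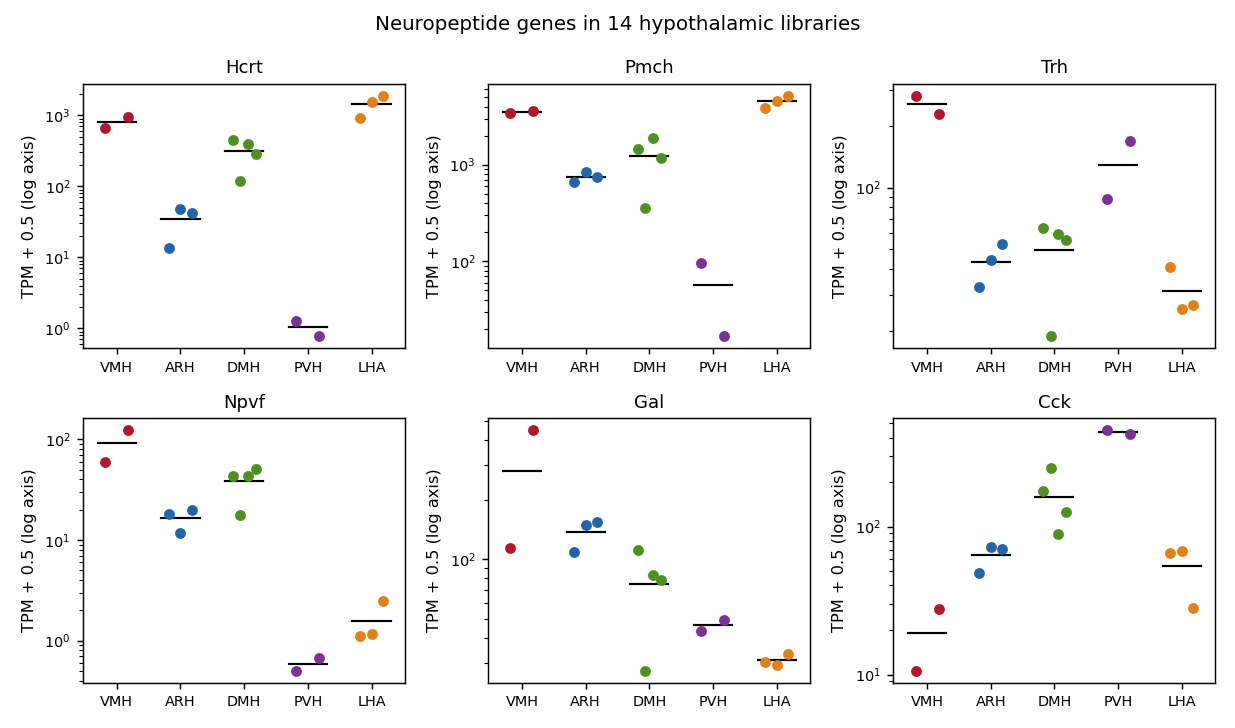
TPM + 0.5 on a log axis for 6 neuropeptide genes in the 14 hypothalamic libraries by region, with a point for each library and a bar for the arithmetic mean. Hcrt and Pmch in VMH lie near LHA, Trh lies above all other libraries at 281 and 229 TPM, and the VMH values of Cck, 10.1 and 27.1 TPM, lie below all others.

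Among the 42 neuropeptide genes, 38 were tested, of which 7 were higher in the VMH and 4 lower (0.787% and 0.875% of all genes tested). Beside Hcrt, Pmch, Npvf and Trh, the higher genes were Cartpt, Gal and Pdyn. Cartpt, the gene of the anorexigenic peptide CART, was at 294 and 334 TPM in the VMH, at 299 to 324 TPM in the ARH and at 43.0 to 152 TPM elsewhere (1.41 ± 0.35, adjusted p = 0.0323). Pdyn, the dynorphin gene, was at 87.4 and 105 TPM in the VMH, at 104 to 107 TPM in the ARH and at 7.81 to 35.0 TPM elsewhere (1.58 ± 0.34, adjusted p = 0.0185). VMH and ARH overlapped for both genes, and both calls were lost when either VMH library was left out, Cartpt also without PVH replicate 1. The Gal call (1.91 ± 0.47, adjusted p = 0.0322) was lost without VMH replicate 2, where the difference was 0.92 (adjusted p = 0.455), and without LHA replicate 1 or PVH replicate 1.

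The 4 lower peptide genes were Cck, Gnrh1, Kiss1 and Npy. Cck (chr9:121489824-121495694), the cholecystokinin gene, was at 10.1 and 27.1 TPM in the VMH. In the ARH it was at 48.4 to 72.6 TPM, in the DMH at 89.1 to 248.4 TPM, in the PVH at 446 and 424 TPM and in the LHA at 27.6 to 67.7 TPM. Every other library lay above both VMH libraries, and Cck had the most negative difference of the genes named by rule (-2.81 ± 0.41, adjusted p = 0.00325). Npy, an appetite-stimulating peptide gene of ARH neurons, was at 20.1 and 14.8 TPM in the VMH, at 382 to 684 TPM in the ARH and at 19.1 to 42.9 TPM elsewhere (-1.80 ± 0.27, adjusted p = 0.00368). Its call was lost without VMH replicate 2 (adjusted p = 0.0705). Kiss1 and Gnrh1, both of the reproductive axis, were at or below 0.918 TPM in the VMH, and each lost its call when any of 9 libraries was left out.

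ARH peptide genes separated the VMH from the ARH where Nr5a1 and Fezf1 did not. Of the 8 ARH markers, 5 were lower in the VMH than in the ARH (1.67% of all genes tested) and 3 were not called. Pomc, the pro-opiomelanocortin gene, was at 17.4 and 5.59 TPM in the VMH against 554, 672 and 426 TPM in the ARH (-5.70 ± 0.37, adjusted p = 6.84e-06). Agrp, which encodes the melanocortin antagonist agouti-related protein, was at 2.02 and 1.39 TPM against 107, 200 and 87.7 TPM (-5.83 ± 0.49, adjusted p = 7.22e-05). Tbx3, a T-box factor of ARH neurons, was at 1.28 and 2.23 TPM against 42.1, 36.2 and 33.9 TPM (-4.10 ± 0.25, adjusted p = 5.34e-06). The pituitary hormone subunit gene Cga was listed at 0 TPM in both VMH libraries and at 67.3, 93.7 and 75.8 TPM in the ARH. The sum of the 8 ARH markers was 58.2 and 98.1 TPM in the VMH and 1082 to 1758 TPM in the ARH.

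Markers of the DMH and PVH were also examined. Of 7 DMH markers, limma called 1 (Npvf) higher in the VMH than in the mean of 4, where it called 0.787% of all genes tested. edgeR called 6 higher, and 4 had an unadjusted limma p under 0.05. Their median log2 difference was 1.47, against 0.06 over all genes tested, and their sum was 86.9 to 247.6 TPM in the VMH and 36.6 to 99.7 TPM in the DMH. Against the DMH alone limma called 0, edgeR 1, and 5 had an unadjusted limma p under 0.05, all of them higher. Of all genes tested, limma called 0.552% higher and 0.863% lower against the DMH. Of 6 PVH markers, limma called 0 against the mean of 4 (0.787% of all genes tested higher and 0.875% lower). edgeR called 1, and 2 had an unadjusted limma p under 0.05. Ucn3, the urocortin 3 gene, was at 11.2 and 1.41 TPM in the VMH, 11.6 and 27.7 TPM in the PVH and at or below 2.08 TPM elsewhere. Like Oxt and Avp, it was high in VMH replicate 1 and low in VMH replicate 2. Sim1, a transcription factor gene of PVH neurons, was at 3.60 and 2.20 TPM in the VMH, within the range of 0.875 to 5.79 TPM of the 12 others.

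Few genes differed from each of the 4 regions on its own. Calls against all 4 regions were made for 2 higher and 5 lower genes, and those outside the naming rule were chosen after their values were seen. The 2 higher were features named only by clone accessions, AC153840.2 (6.30 and 3.51 TPM in the VMH) and AC159815.1 (1.92 and 5.10 TPM), at or near 0 TPM in the 12 others. Both passed the filter on low values only through the 2 VMH libraries, so that they had to differ, and neither passes it with a VMH library left out. The 5 lower were Cck, Igfbp2, Syndig1l, Gm8773 and Rxfp1. Rxfp1, the relaxin receptor gene, was at 0.356 and 0.268 TPM in the VMH and at 1.03 to 7.11 TPM in the 12 others (-2.09 ± 0.16, adjusted p = 8.53e-05). Gm8773, a predicted gene, was at 0.101 and 0.210 TPM against 0.706 to 11.5 TPM.

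The 10 genes with the most negative difference, among called genes with both VMH libraries below all 12 others and a mean of at least 5 TPM in the 4 regions, were Cck, Igfbp2, Stum, Necab1, Mrvi1, Syndig1l, Fam163a, Nbl1, Dio2 and Dcn. Igfbp2 (chr1:72824503-72852474), which encodes a binding protein of insulin-like growth factors, was at 3.10 and 4.64 TPM in the VMH, at 39.4 to 68.6 TPM in the ARH and at 6.03 to 37.8 TPM in the other 9 libraries. Its difference was -2.37 ± 0.27 (adjusted p = 0.000887), and it was called against each region alone. Nbl1, a secreted antagonist of bone morphogenetic proteins, was at 15.1 and 12.7 TPM in the VMH against 17.6 to 82.2 TPM in the 12 others. Dcn, the proteoglycan decorin, was at 7.09 and 6.09 TPM against 56.2 to 75.5 TPM in the ARH and 7.46 to 18.3 TPM elsewhere.

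Some of the lower genes were highest in the PVH. Necab1, which encodes a neuronal calcium-binding protein, was at 13.2 and 17.9 TPM in the VMH, 18.3 to 25.9 TPM in the ARH and 137 and 124 TPM in the PVH (-1.58 ± 0.12, adjusted p = 8.53e-05). Stum was at 12.6 and 19.96 TPM in the VMH, 20.2 to 25.6 TPM in the ARH and 173 and 158 TPM in the PVH (-1.89 ± 0.24, adjusted p = 0.00181). Their differences from the ARH were -0.45 for Necab1 and -0.56 for Stum, neither of them called. Syndig1l, related to a protein of excitatory synapses, was at 5.74 and 8.14 TPM against 12.1 to 30.5 TPM in the 12 others. Calls for Mrvi1 and Fam163a were lost without VMH replicate 1 (adjusted p = 0.139 and 0.0571), and that for Dio2, the deiodinase that activates thyroid hormone, was lost without VMH replicate 2 (adjusted p = 0.112).

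Of 41 hypothalamic transcription factor genes, 7 were higher in the VMH and 3 were lower (0.787% and 0.875% of all genes tested). Beside Nr5a1, Fezf1, Sox14, Vgll2 and Nr0b1, the higher genes were Nkx2-1 and Six6, homeobox factors of the tuberal hypothalamus. Nkx2-1 was at 20.1 and 24.3 TPM in the VMH, 24.7 to 43.4 TPM in the ARH and 1.08 to 12.9 TPM elsewhere (1.31 ± 0.26, adjusted p = 0.0135). Six6 was at 2.75 and 2.12 TPM in the VMH, 7.48 to 12.7 TPM in the ARH and at most 0.4997 TPM elsewhere (1.18 ± 0.26, adjusted p = 0.0197). Both were below the ARH libraries in the VMH, but limma called only Six6 lower against the ARH alone (-1.78, adjusted p = 0.00627). For Nkx2-1 this difference was -0.68 (adjusted p = 0.276). Both calls against the mean of 4 were lost when either VMH library was left out.

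The lower factors included Foxa1, a gene of more caudal hypothalamic and midbrain territory, and Tbx3. Foxa1 was at 0.0364 and 0.114 TPM in the VMH and at 0.853 to 5.39 TPM in the ARH, DMH and LHA. In the PVH it was also low, at 0.106 and 0.186 TPM (-0.17 ± 0.40, not called). The Foxa1 call was lost without the LHA among the other regions. Tbx3 was lower than in the ARH alone (-4.10 ± 0.25) and was not called against the DMH, PVH or LHA alone. Its call against the mean of 4 was lost without the ARH and also without VMH replicate 1.

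Among 58 receptors for hormones and peptides, limma called 1 higher in the VMH (0.787% of all genes tested) and edgeR 3. Oprk1, the kappa opioid receptor gene, was at 21.2 and 21.9 TPM in the VMH, 15.2 to 18.6 TPM in the ARH and 5.98 to 10.9 TPM elsewhere (1.05 ± 0.18, adjusted p = 0.00599). Both VMH libraries were above all 12 others, and the call was lost without VMH replicate 2 (adjusted p = 0.0752). Cnr1, the cannabinoid receptor 1 gene, was at 67.7 and 44.7 TPM in the VMH and 24.5 to 48.0 TPM elsewhere (0.71 ± 0.14, adjusted p = 0.0134), under the size needed for a call. Mc3r, the melanocortin 3 receptor gene, was at 6.20 and 5.86 TPM in the VMH, 10.7 to 13.8 TPM in the ARH and 0.887 to 2.58 TPM in the other 3 regions. Insr, the insulin receptor gene, ranged only from 12.5 to 20.1 TPM over the 14 libraries.

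The VMH holds neurons that respond to glucose, and 23 of 26 genes of glucose and energy sensing were tested. Of the 23, 1 was higher by limma (0.787% of all genes tested) and 1 by edgeR. Ucp2, a mitochondrial carrier gene, was at 190 and 240 TPM in the VMH, 262 to 305 TPM in the ARH and 79.3 to 156 TPM elsewhere (0.62 ± 0.15, adjusted p = 0.0298), under the size needed for a call. Of 19 steroidogenic genes, 11 were tested, and of these Nr0b1 alone was called, as higher (0.787% of all genes tested).

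Of 35 synapse organizers tested, 3 were higher (C1ql2, Nptx1 and Amigo2) and 2 were lower (Slitrk6 and Ntng1), where 0.787% and 0.875% of all genes tested were higher and lower. Their median was 0.07. Slitrk6, a synaptic adhesion gene, was at 2.40 and 2.17 TPM in the VMH against 23.6 and 26.1 TPM in the PVH. Ntng1, the netrin G1 gene, was at 27.1 and 30.1 TPM in the VMH against 154 and 163 TPM in the PVH. The Slitrk6 call was lost without VMH replicate 2 and the Ntng1 call with either VMH library left out. Both calls were also lost without the PVH among the other regions, and that of Ntng1 without the DMH. Of 11 GABA neuron genes tested, limma called 0 and edgeR 2, and 6 had an unadjusted limma p under 0.05. Of 17 immediate early genes, limma called 0 and edgeR 2, and 4 had an unadjusted limma p under 0.05. Slc32a1, the vesicular GABA transporter gene, was at 124 and 134 TPM in the VMH within a range of 82.5 to 199.9 TPM.

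Markers of other cell types differed between the regions. Ependymal cells line the third ventricle and carry motile cilia. Of 10 ependymal markers, 5 (Ccdc153, Tmem212, Rarres2, Enkur and Ak7) were higher in the VMH by limma (0.787% of all genes tested) and 5 were not called, with a median of 1.41. edgeR called 9 of the 10 higher, and all 10 had an unadjusted limma p under 0.05. Their sum was 202 and 414 TPM in the VMH, 208 to 229 TPM in the ARH, 118 to 319 TPM in the DMH, 57.3 and 124 TPM in the PVH and 28.7 to 33.1 TPM in the LHA. All 5 limma calls were lost without VMH replicate 2, with adjusted p of 0.146 to 0.513, and that of Ak7 also without VMH replicate 1, LHA replicate 1 or PVH replicate 1. Leaving out any of 10 libraries ended the call of Rarres2. Against the ARH or DMH alone, 0 of 10 were called by limma or by edgeR, with 1 and 0 at an unadjusted limma p under 0.05, while limma called 6 higher against the PVH (1.91% of all genes tested) and 10 against the LHA (4.47%). Ccdc153, a gene of ciliated cells, was at 63.6 and 118 TPM in the VMH and at 49.9, 38.0, 90.4 and 111 TPM in the DMH.

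Tanycytes, which line the floor of the third ventricle, had 10 markers, of which Gpr50 was higher and Dio2 and Frzb were lower (0.787% and 0.875% of all genes tested). Their sum was 187 and 237 TPM in the VMH and at most 596 TPM in the ARH, and 7 of 10 were lower in the VMH than in the ARH (1.67% of all genes tested). Gpr50, an orphan receptor gene, was at 12.2 and 40.4 TPM in the VMH, 53.8 to 69.5 TPM in the ARH and at most 14.3 TPM elsewhere. It lost its call without VMH replicate 2 (adjusted p = 0.364). Frzb, a secreted Wnt antagonist gene, was at 1.68 and 1.93 TPM in the VMH and 20.4 to 37.4 TPM in the ARH. Of 8 choroid plexus markers tested, Clic6 was higher and Otx2 lower (0.787% and 0.875% of all genes tested). These calls were lost without VMH replicate 2 and 1, respectively.

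Oligodendrocyte markers, and markers of tissue above the hypothalamus, had their highest sums outside the VMH. The sum of 10 oligodendrocyte markers was 3718 and 1583 TPM in the VMH, 1038 to 1728 TPM in the ARH, 3899 to 6121 TPM in the DMH, 4535 and 6004 TPM in the PVH and 11200 to 14590 TPM in the LHA. Of the 10, limma called Ugt8a lower against the mean of 4 (0.875% of all genes tested) and did not call 9. All 10 had an unadjusted limma p under 0.05 in the lower direction, with a median of -0.88, and edgeR called 1 lower. All 10 were called lower against the LHA (2.46%). Against the ARH, limma called 1 higher (0.299% of all genes tested) and edgeR 4, and 8 were higher at an unadjusted limma p under 0.05. The Ugt8a call was lost without VMH replicate 2 (adjusted p = 0.252). The 14 telencephalon and thalamus markers summed to 88.5 and 96.4 TPM in the VMH and 82.5 to 89.1 TPM in the ARH, but to 299 to 589 TPM in the DMH, 677 and 698 TPM in the PVH and 121 to 312 TPM in the LHA. Of 13 tested, 5 were lower in the VMH (0.875% of all genes tested), among them Gbx2 and Tcf7l2, which were called with either VMH library left out. The other 3 calls depended on them: Slc17a7 and Rgs16 were lost when either was left out, and Prkcd without VMH replicate 2.

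Gbx2, a thalamic homeobox gene, was at 0.526 and 0.878 TPM in the VMH and at 34.1 and 54.01 TPM in the PVH. Among the lower genes of the VMH, Cck, Necab1 and Stum had their highest levels within the 5 hypothalamic regions in the PVH. Their correlation with Gbx2 was not computed. The part of thalamic tissue in the lower genes, and of ependymal cells in the higher genes, was not tested. In the astrocyte, microglia, endothelial and mural, and red cell lists, 0 markers were called against the mean of 4 by limma or by edgeR, with 4, 5, 5 and 0 at an unadjusted limma p under 0.05. The pituitary list had 2 lower genes of 9 tested, where 0.875% of all genes tested were lower. These were Cga, whose call was lost with edgeR and with DESeq2 on counts, and Tshb, whose call was lost without VMH replicate 2. Of the 9, edgeR called 1 higher and 1 lower, and 3 had an unadjusted limma p under 0.05, all of them lower. The list summed to 7.27 and 10.6 TPM in the VMH and 89.4 to 140 TPM in the ARH.

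**Figure D4:**
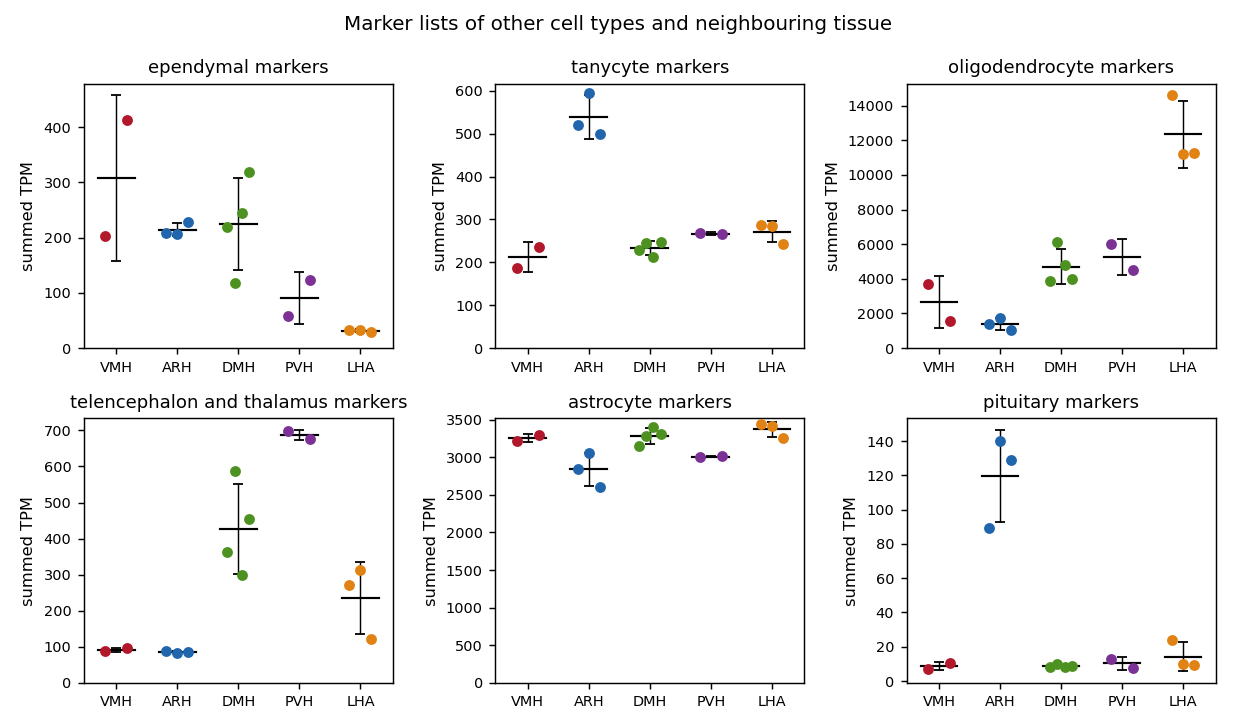
Summed TPM of 6 marker lists (vertical axes, linear) in the 14 hypothalamic libraries by region, with a point for each library, a bar for the mean and an error bar for the SD. VMH replicate 2 had the highest ependymal sum of all 14 libraries at 414 TPM, whereas telencephalon and thalamus markers were at 88.5 and 96.4 TPM in VMH and at 677 and 698 TPM in PVH.

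The 5 genes with the pattern most like Nr5a1 over the 14 libraries, by Pearson's r of log2(TPM + 0.5), were Nr0b1 (r = 0.979), Cdh13 (0.973), Lmo3 (0.971), Rai14 (0.963) and Susd2 (0.959). Fezf1 reached 0.899. The 14 points share regions, so these values mainly describe a split into VMH and ARH against the other regions. Cdh13, the T-cadherin gene, was at 167 and 139 TPM in the VMH, 130 to 162 TPM in the ARH and 72.6 to 94.0 TPM elsewhere. Lmo3, a LIM domain transcription regulator gene, was at 89.0 and 67.3 TPM in the VMH, 64.3 to 78.8 TPM in the ARH and 23.5 to 34.2 TPM elsewhere. Calls for Lmo3 and Rai14, an actin-associated gene, were lost without VMH replicate 1. For all 5 genes the VMH and ARH ranges overlapped, and the differences from the ARH were 0.01 to 0.35, none of them called.

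Across the 22 brain regions sampled, 4 of them from C57BL/6NTac embryos (E14.5), 37 of the 134 higher genes had their highest mean in the VMH, 41 in cerebellar lobule CENT2 and 17 in the ARH. The 134 genes were selected as higher in the VMH than in the other nuclei. The matching counts over all genes tested were not computed, so these numbers single out no region. Nr5a1 averaged 33.6 ± 17.3 TPM in the VMH (SD, n = 2), 18.2 ± 1.44 TPM in the ARH (n = 3) and 17.5 ± 5.11 TPM in the embryonic hypothalamus (THy-PHy), and was at or below 0.190 TPM in every other region. The spread of the VMH covered the level of the other two. Fezf1 was highest in the embryonic hypothalamus at 51.8 ± 5.4 TPM. The VMH followed at 45.3 ± 23.6 TPM (n = 2) and the ARH at 35.5 ± 3.4 TPM (n = 3). The wide spread of the VMH covered both other levels, whereas the SDs of the embryonic hypothalamus and the ARH did not overlap. Trh averaged 255 ± 36.6 TPM in the VMH (n = 2), 128 ± 57.8 TPM in the PVH (n = 2) and 9.80 TPM in the frontal pole cortex, the highest adult region outside the hypothalamus.

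**Figure D5:**
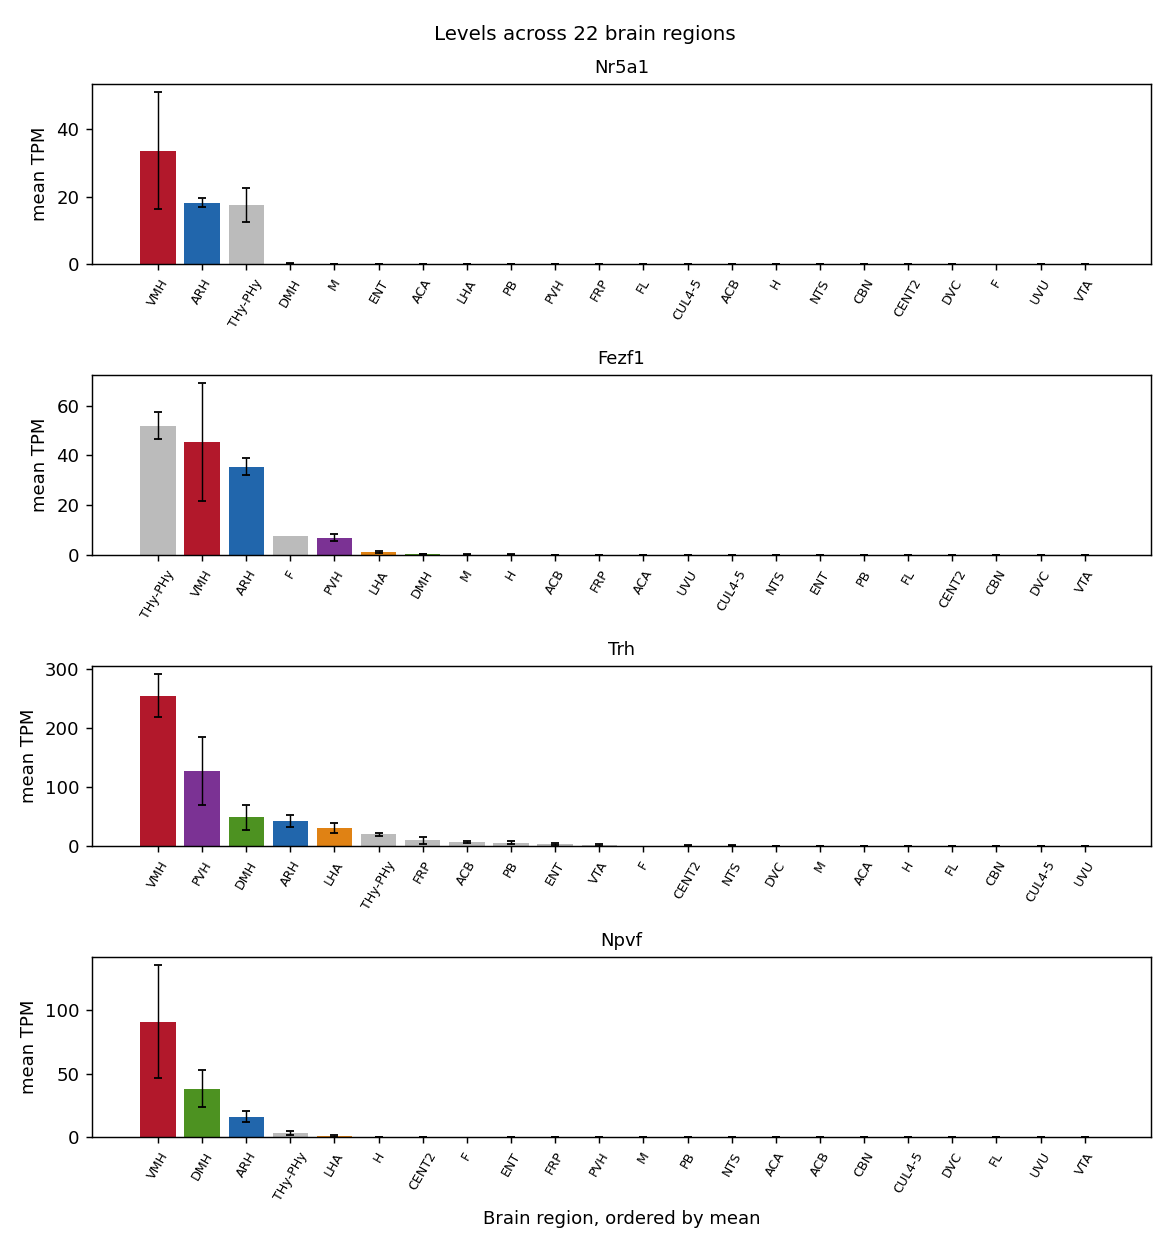
Mean TPM (vertical axes, linear from 0) of Nr5a1, Fezf1, Trh and Npvf in 22 brain regions ordered by mean, with SD as error bars (F has 1 library and no SD) and the 5 adult hypothalamic nuclei in color. Nr5a1 was near 0 outside VMH, ARH and the embryonic hypothalamus, and Npvf was highest in VMH at 91.1 TPM, followed by DMH at 38.3 TPM.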

How the data were processed

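mRNA was sequenced with single reads. Per the submitters' processing notes and the study's methods, reads were converted with CASAVA 1.8.2 and quantified with Kallisto on the cDNA of GRCm38. The authors deposited TPM per gene (34677 genes), scaled within each library, and estimated counts and TPM per transcript, not normalized between libraries. Levels and the main test used the gene TPM. For tests on counts, deposited estimated counts were summed per gene with GENCODE M21, which matched 107987 of 109282 transcripts, and rounded; 0.49% to 0.55% of counts were unmatched. Sums did not match the gene TPM for 332 genes, Kiss1 and Prkcd among them. The files hold 14201960 to 19689276 counts per library.

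limma 3.58.1 in R 4.3.3 was fitted to log2(TPM + 0.5) of 14 libraries with 1 group per region, for genes of at least 1 TPM in at least 2 libraries, with a trended prior. The pseudocount understates the change of low genes. edgeR 4.0.16 and DESeq2 1.42.0 were alternatives. On simulated data of 16498 genes, limma called 98 of 100 genes changed by 1.5 and 99 of 100 changed by 2 (log2), and 11 unchanged genes. The changed genes were drawn only from genes above a set mean count. The simulation therefore does not describe how often changes of genes at low levels are found.

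Genes named were 4 label and neighbor markers, the 15 higher and 10 lower genes described, the 5 most like Nr5a1, and members of lists written from textbook knowledge; others are said to be chosen after their values were seen. Features named Gm with digits, Rik, or by accession were passed over in the 15, the 10 and the 5. Members and lists were chosen with earlier results of these data known. The labels give replicate numbers, but same-numbered libraries did not deviate together. In the VMH and the PVH, with 2 libraries each, the deviations mirror each other, so their correlations are not separate values. The labels do not say whether same-numbered libraries were collected together, so the check cannot show whether libraries collected together deviate together. The study lists collection batches for each region's samples without library names, so batches were not assigned to libraries and within-batch values were not computed. Python 3.11.15 did the remaining steps. Values of 4 genes, 1 of the 15 among them, are not reported here.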

Additional observations from a re-analysis of the deposited data

Results flagged for a closer look

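Among the 95 genes tested for a library far from the others, only the DMH had the 4 libraries that the test needs, and 4 values stood apart, where chance gives about 1 in 20 groups. Ugt8a was highest in DMH replicate 2 at 37.0 TPM, Avp in DMH replicate 1 at 18.8 TPM and AC159815.1 in DMH replicate 4 at 9.69e-05 TPM. Mc3r was lowest in DMH replicate 2 at 1.52 TPM.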

How the results depend on the processing

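Against the mean of 4, the higher genes numbered 274 with edgeR, 287 with edgeR without a filter, 256 with DESeq2, 2 with the 12 libraries as 1 group, 316 without the ARH, 36 without the LHA and 87 without the PVH, where 134 were called. The lower genes numbered 227 with DESeq2, 0 with the 12 libraries as 1 group (407 lower genes had an unadjusted limma p under 0.05 in that fit) and 275 without the ARH, where 149 were called. Leaving out 1 library gave 66 to 157 higher and 53 to 162 lower genes. It gave 22 to 94 higher and 134 to 293 lower against the ARH, 48 to 107 and 99 to 167 against the DMH, 127 to 380 and 217 to 398 against the PVH, and 528 to 817 and 287 to 454 against the LHA. With edgeR, 99 were higher against the ARH and 645 lower against the LHA. With the 12 libraries as 1 group the calls of Nr5a1 (4.48), Fezf1 (3.49), Hcrt (3.08) and Pmch (2.14) were lost. Without the PVH those of Hcrt (1.8) and Pmch (1.22) were lost, and without a filter that of Pmch (2.53). Leaving out 1 library gave 3.97 to 5.05 for Nr5a1, 2.69 to 3.79 for Fezf1, 3.5 to 4.01 for Hcrt and 2.21 to 2.84 for Pmch. Pomc, not called, turned to 1.14 without the ARH. Among the 73 named genes that were called, 28 lost the call without the LHA and 23 without the PVH. Without the ARH 7 lost it, and without the DMH 6. The causes were not tested.

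With the replicate block, 113 genes were higher and 156 lower, and 12 of 73 called genes lost the call. Same-numbered libraries had correlations of deviations of -0.094 to 0.10, so the numbers were not taken as pairs. With 2 VMH libraries, 26 of the 73 lost the call without replicate 1 and 34 without replicate 2.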
